A study of Mus musculus with 12 samples.

Results

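Interferon-stimulated genes, the genes that cells switch on when an interferon binds its receptor, were followed across the 4 groups of a study of doxorubicin (DOX) in the mouse heart. The group was a list of 41 gene symbols. For each gene the brightest probe set on average was taken among those that name 1 gene, and 39 of the 41 listed genes had such a probe set, of 18193 genes on the array. Isg15 had only a probe set that names several genes, Ifi44 had none, and neither is described further. Heart RNA of male C57BL/6J mice was measured on 12 Affymetrix arrays, 3 in each group. The groups are knockout-labelled hearts after DOX, WT hearts after DOX, knockout-labelled hearts with no treatment and WT hearts with no treatment. DOX, an anthracycline used against cancer, was injected at 15 mg/kg and the hearts were taken 5 days later, from mice of 8 to 10 weeks. These dose, age and treatment terms are those of the labels, whereas the study's text gives a higher dose, older mice and saline for the animals without DOX.

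The genotype labels go against the study's text and against the arrays. The labels speak of a knockout of CHIP, the ubiquitin ligase and cochaperone encoded by Stub1, and the study's text describes a CHIP transgene expressed in the heart only. On the brighter of its 2 probe sets Stub1 read 5561, 7998 and 8723 in the knockout-labelled DOX hearts, against 1944, 1949.9 and 1930.1 in the WT DOX hearts. With no treatment it read 8762, 9817 and 9655 in the knockout-labelled and 1857, 1831 and 1790.3 in the WT hearts. All 6 knockout-labelled arrays lay above all 6 WT arrays, so "knockout-labelled" is used here as a name only, and each genotype direction below is that of the libraries so labelled. On the dimmer probe set the log2 fold change of Stub1 was -0.08 after DOX and -0.04 with no treatment. Whether an array held RNA of 1 heart or a pool is not stated in the sources, and p-values measure only the spread between these arrays.

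Type I interferons signal through the receptor chains Ifnar1 and Ifnar2, and interferon gamma through Ifngr1 and Ifngr2. The kinases Jak1, Jak2 and Tyk2 then activate STAT proteins, which carry the signal to the nucleus. A complex that holds Stat2 and Irf9 binds the interferon-stimulated response element, and the response to interferon gamma runs through the gamma-activated sequence. The genes under these elements code for sensors of foreign RNA and DNA, for enzymes that block viral replication, for GTPases that act on membranes holding pathogens, and for parts of antigen presentation. In the heart such genes are known to respond to viral myocarditis and to nucleic acids released from injured cells.

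Promoters of the listed genes were read to show these elements in the genes whose values are described below. Of the 39 genes measured, 28 had a RefSeq promoter window (GRCm38.p6) of 250 bases before to 50 bases after the start. The core of the response element was searched as GAAANNGAAA and the gamma-activated sequence as TTCNNNGAA, both on either strand. The core was found in 15 of the 28 (53.6%) and in 3.99% of the 27025 genes of the table, and the gamma-activated sequence in 9 of the 28 (32.1%) and in 9.55% of all genes. A match of letters is a description of the window and not a site of binding. The 6 stretches shown end at the base before the start and read in the direction of the gene, with the matches in capitals. They are the 100 bases before Igtp (chr11:58199456-58199555, + strand), Irgm1 (chr11:48871421-48871520, - strand) and Gbp2 (chr3:142620563-142620662, + strand), which code for GTPases, and the 160 bases before Bst2 (chr8:71537473-71537632, - strand), Ifit1 (chr19:34640729-34640888, + strand) and Rsad2 (chr12:26456453-26456612, - strand), which code for antiviral proteins.
Igtp: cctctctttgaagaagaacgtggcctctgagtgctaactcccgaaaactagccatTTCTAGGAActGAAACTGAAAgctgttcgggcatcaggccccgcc
Irgm1: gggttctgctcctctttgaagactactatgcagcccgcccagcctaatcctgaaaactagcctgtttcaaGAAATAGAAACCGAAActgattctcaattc
Gbp2: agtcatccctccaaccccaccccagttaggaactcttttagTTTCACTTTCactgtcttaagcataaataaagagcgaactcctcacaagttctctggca
Bst2: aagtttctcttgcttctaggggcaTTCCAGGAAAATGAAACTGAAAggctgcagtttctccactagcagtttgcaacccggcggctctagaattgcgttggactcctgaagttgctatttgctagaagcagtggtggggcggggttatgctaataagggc
Ifit1: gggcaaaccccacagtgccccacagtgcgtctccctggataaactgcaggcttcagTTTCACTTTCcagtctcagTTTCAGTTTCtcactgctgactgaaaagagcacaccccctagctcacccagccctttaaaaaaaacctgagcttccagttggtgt
Rsad2: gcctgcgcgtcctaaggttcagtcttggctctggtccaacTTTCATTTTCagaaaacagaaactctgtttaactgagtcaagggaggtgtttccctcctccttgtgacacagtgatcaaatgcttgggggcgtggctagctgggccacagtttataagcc
In Igtp the gamma-activated sequence began 45 and the response element 34 bases before the start. In Bst2 they began 136 and 130 bases before it and overlapped, and a second core that shared a GAAA with the first began at 124. In Irgm1, too, 2 cores that began 30 and 24 bases before the start shared a GAAA. The single cores of Gbp2 and Rsad2 and both cores of Ifit1 lay on the other strand, where they read as TTTC pairs.

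The listed genes ranged widely in level. Intensities are linear and each is the value of 1 probe set, so that levels of different genes are not set against each other by probe set brightness. The mean over the 12 arrays was at least 100 for 30 of the 39 genes, under 100 for 9 and under 32 for 3, namely Mx1, Oas3 and Dhx58. Mx1, an antiviral GTPase gene that is known to be defective in C57BL/6 mice, had a mean of 9.39. The 32 added before log2 draws the log2 fold changes of such dim genes toward 0, and their standard errors with them. In the DOX response of WT hearts the standard errors were 0.042 for Mx1, 0.044 for Oas3 and 0.067 for Dhx58, where the median of the 39 genes was 0.14. A small standard error of a dim gene is therefore not read as certainty. The genes also varied more between arrays of 1 group than most probe sets. Their SD within groups on the scale of log2(intensity + 32) had a median of 0.18, where the median over all 45037 probe sets was 0.077. It was over 0.4 for 6 genes and highest, at 0.80, for Iigp1.

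Some arrays stood apart. Median intensities of the arrays were 28.9 to 30.4, and the mean correlation of an array with the others of its group was 0.990 to 0.997, lowest for knockout-labelled no treatment replicate 3. That array was the lowest of its group for 30 of the 39 genes, and its S100a8, a neutrophil gene, read 2337. WT DOX replicate 2 had the highest S100a8, at 3095, and the lowest value of all 12 arrays for 12 of the genes. Some calls and counts are therefore also given without a single array. The labelled tissue was borne out by its markers, since all 8 cardiomyocyte genes looked up, Myh6 and Tnnt2 among them, were bright, with a summed intensity of 123675 to 152676 on each array.

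**Figure D1:**
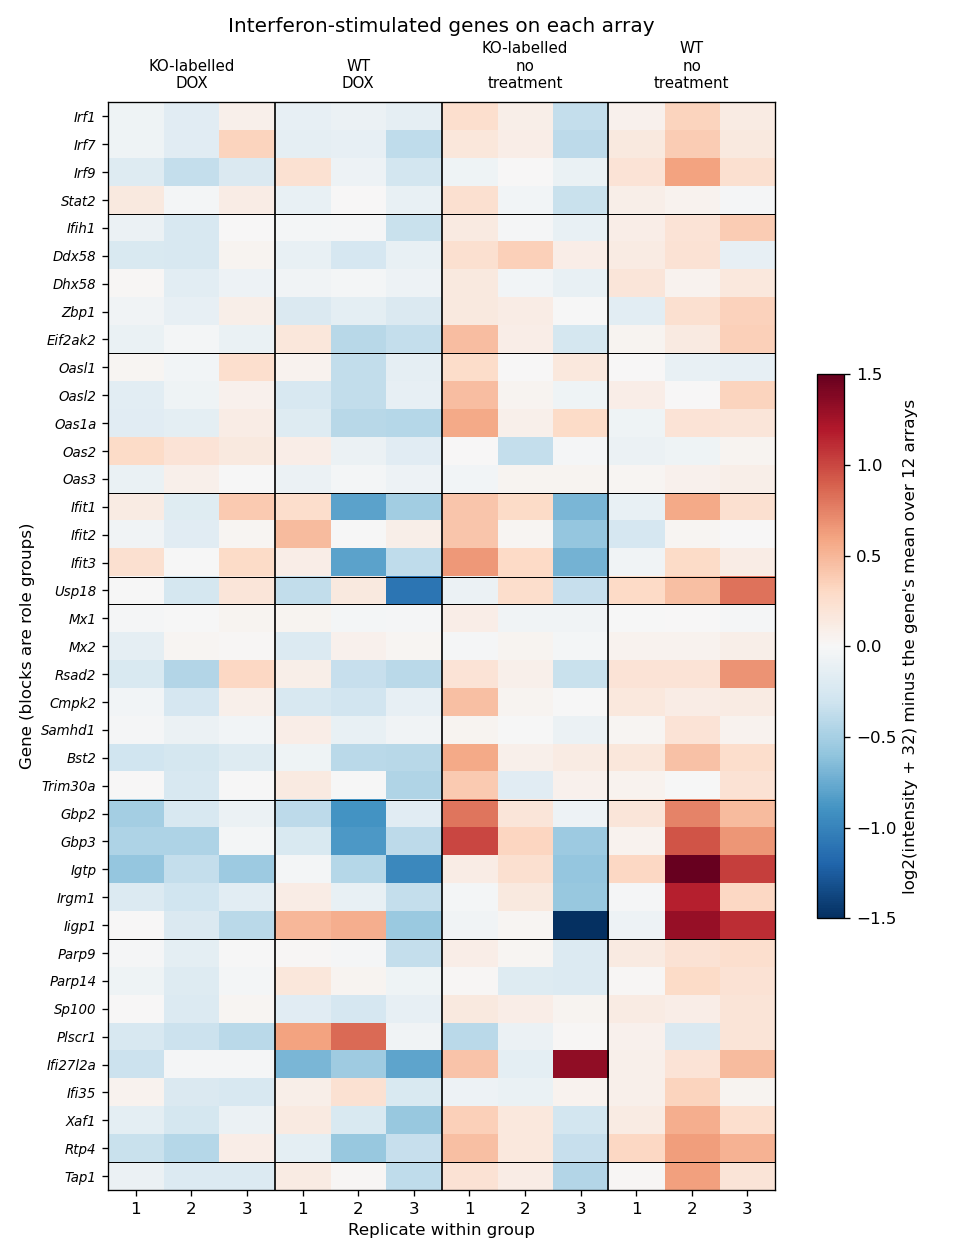
Level of the 39 interferon-stimulated genes (rows, in blocks by role) on the 12 arrays (columns, by group and replicate), as log2(intensity + 32) minus the gene's mean over the arrays. KO-labelled stands for knockout-labelled. The mean deviation of the 39 genes is below 0 (blue) on all 6 DOX arrays and, with no treatment, above 0 (red) on all but knockout-labelled replicate 3, which was the lowest of its group for 30 genes.

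In WT hearts most of the interferon-stimulated genes were lower after DOX. The mean was lower in 36 of the 39 genes, with a median log2 fold change of -0.35, where that over all probe sets was -0.01 and 54.0% of probe sets were lower. The GTPase genes Igtp and Gbp3 and the protease gene Usp18 had the lowest values. Most of these differences did not pass the test. By limma, at an adjusted p under 0.05, 3.06% of the probe sets were called in this comparison, and of the 39 genes 1 was, Sp100, which fell. At an unadjusted p under 0.05, 20 of the 39 were lower and 0 higher, where 18.8% of all probe sets passed in either direction. In 18 genes all 3 WT DOX values lay below all 3 values with no treatment, and in 0 genes above, where 12.8% of all probe sets lay wholly below and 11.6% wholly above. Bright genes are called more often, so the 30 genes with a mean of at least 100 were also counted among the 7908 genes of that brightness. Of the 30, 14 (46.7%) lay wholly below, and of the 7908, 18.6% did. At an unadjusted p under 0.05 by limma, 15 of the 30 (50%) and 34.1% of the 7908 passed. At an adjusted p under 0.05, 1 of the 30 (3.33%) and 7.23% of the 7908 were called. When only probe sets with a mean of at least 100 were tested, 13.7% of those probe sets and 8 of the 30 genes were called, the genes all lower, namely Sp100, Bst2, Igtp, Rtp4, Gbp2, Oas1a, Usp18 and Ifi27l2a. With 1 array left out, 2 values are set against 3 and more probe sets lie apart. Without WT DOX replicate 1, 28 genes and 18.1% of all probe sets lay wholly below, and without WT no treatment replicate 1, 26 genes and 20.6% did.

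Sp100, which codes for a protein of the PML nuclear bodies, read 89.6, 82.7 and 93.7 in WT DOX hearts, against 117, 115 and 124 in WT hearts with no treatment. The groups did not overlap, and the values within each were close together. The log2 fold change was -0.32 (SE 0.06, adjusted p = 0.029), a 1.25-fold lower level on the scale of intensity + 32, where SE is the standard error from limma and p is adjusted over all probe sets. The second probe set of Sp100 had a log2 fold change of -0.25 with an adjusted p of 0.21. The call ended without WT DOX replicate 1 or 2 and without each of the WT no treatment replicates, with adjusted p of 0.058 to 0.11.

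The 5 interferon-inducible GTPase genes had the lowest median of the role groups with over 1 gene, a log2 fold change of -0.95, and all 5 means were lower after DOX in WT hearts. Igtp, whose protein is a GTPase of vacuole membranes, read 412, 303 and 199 in WT DOX hearts, against 529, 1531 and 893 in WT hearts with no treatment. Every DOX value lay below the lowest untreated value, while replicate 2 of the untreated hearts was far above the others. The log2 fold change was -1.52 (SE 0.37, adjusted p = 0.057), and it was called without WT no treatment replicate 1, at -1.89 with an adjusted p of 0.034. Gbp2, a guanylate-binding protein gene, read 344, 232 and 406 in WT DOX and 525, 792 and 651 in WT hearts with no treatment, again with no overlap, for a log2 fold change of -0.95 (SE 0.25, adjusted p = 0.076). Its other probe set gave -0.72. Gbp3 read 164, 94.7 and 144 in WT DOX and 206, 410.4 and 333 in WT hearts with no treatment, with a log2 fold change of -1.05 (SE 0.37, adjusted p = 0.16). In Irgm1 and Iigp1, which code for GTPases of the same immunity-related family as Igtp, the groups overlapped. Irgm1 read 307, 258 and 211 in WT DOX hearts, against 278, 668 and 357 with no treatment. Iigp1, the brightest of the 39 probe sets, read 3148, 3237 and 1499 in WT DOX hearts, against 2102, 5516 and 4819 with no treatment. Their log2 fold changes of -0.61 and -0.62 had adjusted p of 0.28 and 0.65.

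Among antiviral effectors, 6 of 7 means were lower after DOX in WT hearts, with a median log2 fold change of -0.19. Bst2, which codes for tetherin, a membrane protein that holds budding virus on the cell, read 187, 141 and 139 in WT DOX hearts, against 226, 278 and 244 in WT hearts with no treatment. The groups did not overlap, and the log2 fold change of -0.59 (SE 0.14, adjusted p = 0.051) missed the threshold. Rsad2, which codes for viperin, read 577, 418 and 399 in WT DOX hearts, against 629, 629 and 881 with no treatment, also with no overlap and a log2 fold change of -0.58 (SE 0.23, adjusted p = 0.20). Its other 2 probe sets gave -0.49 and -0.61. Cmpk2, a mitochondrial nucleotide kinase gene, had a log2 fold change of -0.34 without overlap, and Samhd1, Trim30a and Mx2 lay between -0.19 and -0.10.

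Usp18, which codes for the protease that removes ISG15 from proteins and damps the type I receptor, read 141, 214 and 72.4 in WT DOX hearts, against 243, 273 and 362 with no treatment. The DOX values spread widely but all lay below the untreated ones. The log2 fold change was -0.96 (SE 0.29, adjusted p = 0.10). In the IFIT family, whose proteins bind viral RNA, the 3 means did not all lie on the same side. Ifit1 read 340.0, 147 and 184 in WT DOX hearts, against 256, 429 and 333 with no treatment, and Ifit3 had a similar log2 fold change (-0.58 for Ifit1, -0.48 for Ifit3). Ifit2 read 450.1, 315 and 337 in WT DOX hearts, against 260.4, 324 and 318 with no treatment, a log2 fold change of 0.25. All 3 genes overlapped between the groups, and the lowest adjusted p of the family was 0.42.

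**Figure D2:**
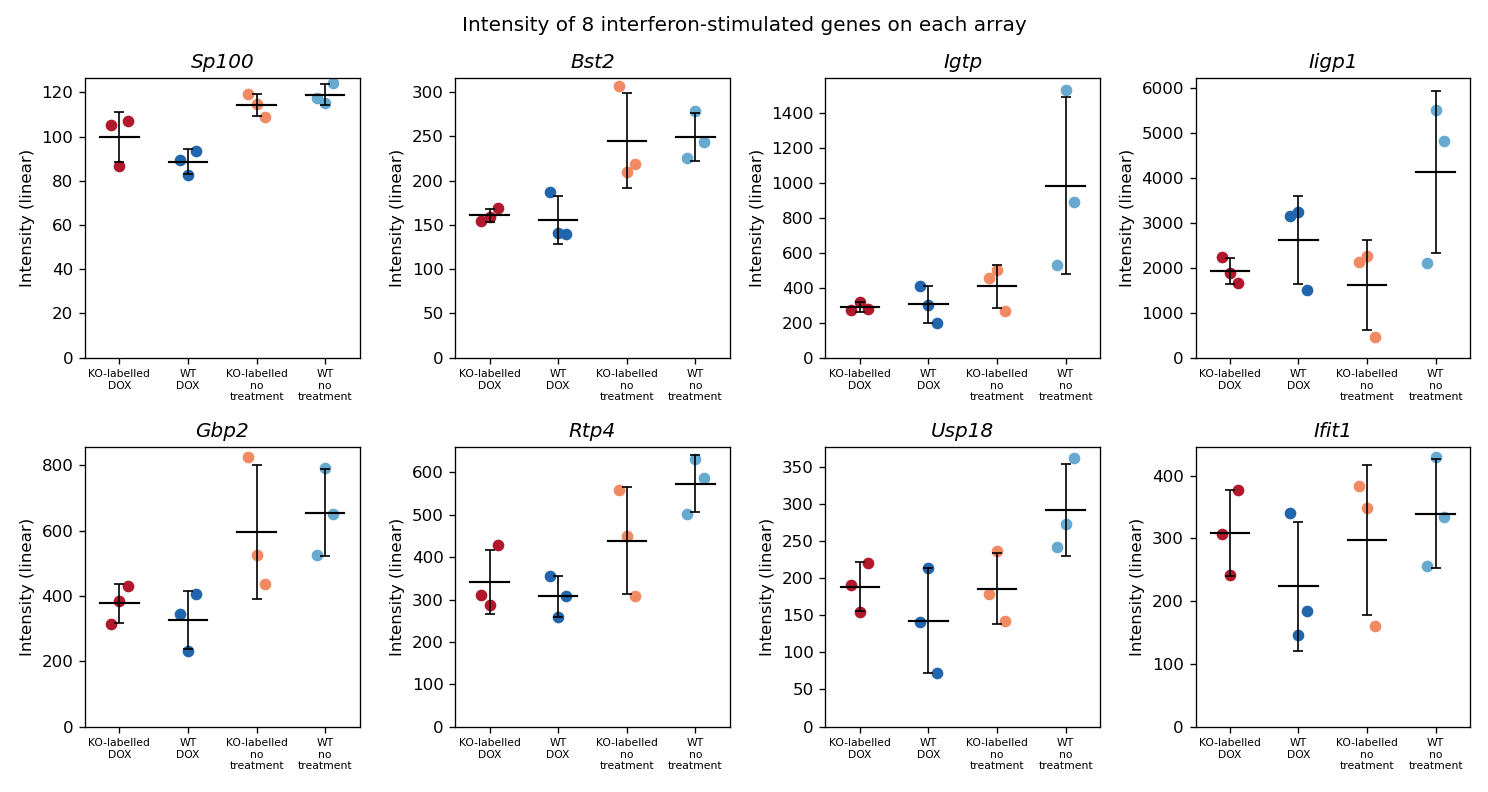
Linear intensity of 8 interferon-stimulated genes on each array, by group, with the mean (horizontal line) and SD (bar, n = 3). The 3 WT DOX values of Sp100, Bst2, Igtp, Gbp2, Rtp4 and Usp18 lie below the 3 values of WT hearts with no treatment, and those of Iigp1 and Ifit1 overlap them.

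The sensors of RNA and DNA were lower after DOX in WT hearts in 5 of 5 means, with a median log2 fold change of -0.34. Ifih1, which codes for the RNA sensor MDA5, read 199, 202 and 156 in WT DOX hearts, against 221, 239.9 and 275 with no treatment, without overlap and with a log2 fold change of -0.35 (SE 0.11, adjusted p = 0.11). Ddx58, which codes for RIG-I, had -0.23, and the kinase gene Eif2ak2 (PKR) had -0.38, both with overlapping groups. A dimmer probe set of Ddx58, with a mean of 39.3, was called at -0.29 with an adjusted p of 0.035. In the OAS family, whose enzymes make the 2-5A messenger that activates RNase L, 5 of 5 means were lower with a median of -0.12. That median was the value of Oas3, which was dim, with a mean of 20.4. Oas1a read 134, 109 and 108 in WT DOX hearts, against 149, 186 and 182 with no treatment, and its log2 fold change was -0.45 (SE 0.13, adjusted p = 0.097). Oas2 and the dim Oasl1 lay near 0, at -0.01 and -0.07.

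The signalling and transcription factor genes were lower after DOX in WT hearts in 4 of 4 means, with a median log2 fold change of -0.34. Irf7, the factor that amplifies type I interferon output, read 117, 118 and 93.0 in WT DOX hearts, against 148, 179.6 and 148 with no treatment. Irf1 read 379, 389 and 376 in WT DOX hearts, against 437, 533 and 456 with no treatment. Neither gene overlapped between the groups, and the log2 fold changes were -0.43 for Irf7 and -0.29 for Irf1, with adjusted p of 0.20 and 0.29. Irf9, the DNA-binding part of the STAT complex, read 221, 173 and 146 in WT DOX hearts, against 217, 295 and 222 with no treatment, and replicate 1 of the DOX hearts lay among the untreated values.

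A role group of 8 genes held PARP, nuclear body, membrane and other interferon-induced genes, Sp100 among them. In it 7 means were lower after DOX in WT hearts, with a median log2 fold change of -0.32. Rtp4, which codes for a chaperone of membrane receptors, read 356, 258 and 308 in WT DOX hearts, against 501, 632 and 588 with no treatment. Ifi27l2a read 551, 617 and 511 in WT DOX hearts, against 962, 1055 and 1279 with no treatment. Neither overlapped between the groups. Their log2 fold changes were -0.84 (SE 0.21, adjusted p = 0.061) and -0.93 (SE 0.30, adjusted p = 0.12). Parp9, a regulator of STAT signalling, had -0.32, Parp14 had -0.12, and Xaf1 had -0.53, whereas a dimmer probe set of Xaf1 had 0.76 with an adjusted p of 0.48, reading 209 on WT DOX replicate 3 and 14.8 to 20.1 on the other WT DOX and all WT no treatment arrays. Tap1, outside these 8, codes for a chain of the peptide transporter for antigen presentation. It read 176, 161 and 115 in WT DOX hearts, against 161, 261 and 186 with no treatment, a log2 fold change of -0.36. Among the 8, Ifi35 had -0.12 with an adjusted p of 0.69 on its brightest probe set. A dimmer probe set of Ifi35, with a mean of 204, was called at -0.24 with an adjusted p of 0.049 from limma. Plscr1, also of the 8, which codes for a phospholipid scramblase, ran the other way. It read 305, 367 and 181 in WT DOX hearts, against 199, 159 and 221 with no treatment, and its log2 fold change was 0.46 (SE 0.21, adjusted p = 0.28). A second probe set of Plscr1 also gave 0.46.

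In knockout-labelled hearts the median difference after DOX was closer to 0 than in WT hearts. The mean was lower in 30 of the 39 genes, with a median log2 fold change of -0.10, where that over all probe sets was 0.01. By limma, at an adjusted p under 0.05, 2.2% of the probe sets and 0 of the 39 genes were called. At an unadjusted p under 0.05, 5 genes were lower and 1 higher, where 16.2% of all probe sets passed. In 5 genes the DOX values lay wholly below those with no treatment and in 1 wholly above, where 9.59% of all probe sets lay below and 11.1% above. The shares at an unadjusted p under 0.05 (15.4%) and wholly below (12.8%) are close to the background, and the share wholly above is under it. Without knockout-labelled no treatment replicate 3 the lower means were 38 of 39, the median was -0.22, and 17 genes and 15% of all probe sets lay wholly below. Without replicate 1 of that group the lower means were 24 and the median was -0.03.

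Bst2 had the lowest p of the lower genes in knockout-labelled hearts. It read 155, 159 and 169 after DOX, against 307, 210.2 and 218 with no treatment, with no overlap and a log2 fold change of -0.51 (SE 0.14, adjusted p = 0.092). Ddx58 read 98.9, 98.6 and 126 after DOX, against 149.5, 165 and 132 with no treatment, with a log2 fold change of -0.37 (SE 0.11, adjusted p = 0.10). Both genes passed when only probe sets with a mean of at least 100 were tested, with adjusted p of 0.032 and 0.046, where 12.1% of those probe sets were called. The GTPase genes had a median of -0.42. Gbp2 read 314, 386 and 432 in knockout-labelled hearts after DOX, against 826, 526 and 435 with no treatment, a log2 fold change of -0.58 (SE 0.25, adjusted p = 0.30). Igtp read 269.6, 319.6 and 276 after DOX, against 456, 499 and 269 with no treatment, and the groups overlapped through replicate 3 of the untreated hearts. Sp100 read 105, 86.7 and 107 after DOX, against 119, 115 and 109 with no treatment, a log2 fold change of -0.15 (SE 0.06, adjusted p = 0.25) with no overlap. Oas2 was the gene that lay wholly above. It read 182, 170.5 and 163 in knockout-labelled hearts after DOX, against 144, 106 and 142 with no treatment, a log2 fold change of 0.33 (SE 0.10, adjusted p = 0.12). Ifi27l2a read 719, 898 and 900.1 in knockout-labelled hearts after DOX, against 1234, 816 and 2334 with no treatment, where replicate 3, low in most of the genes, was the highest. Iigp1, whose value on that replicate was the lowest of the 12 arrays, had a log2 fold change of 0.53. Usp18, at 0.03, and the IFIT genes, at -0.02 to 0.11, lay near 0.

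The DOX responses of the 2 genotypes rest on different arrays. The mean was lower in both for 28 of the 39 genes (71.8%), where 28.8% of all probe sets were. In 27 of the 28 (96.4%) the difference was larger in WT hearts, the exception being Ddx58. Of all probe sets lower in both, the difference was larger in WT hearts in 52.5%. The mean was lower in WT hearts only for 8 genes, among them Usp18, Irf7, Iigp1, Ifit1 and Ifit3. It was lower in knockout-labelled hearts only for Plscr1 and Ifit2. The list of 8 depended on knockout-labelled no treatment replicate 3. Without that array the mean was lower in knockout-labelled hearts for 38 of the 39 genes. Nearly all of the 8 were then lower in both genotypes. The genes with a larger difference in WT hearts were counted with all arrays only.

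**Figure D3:**
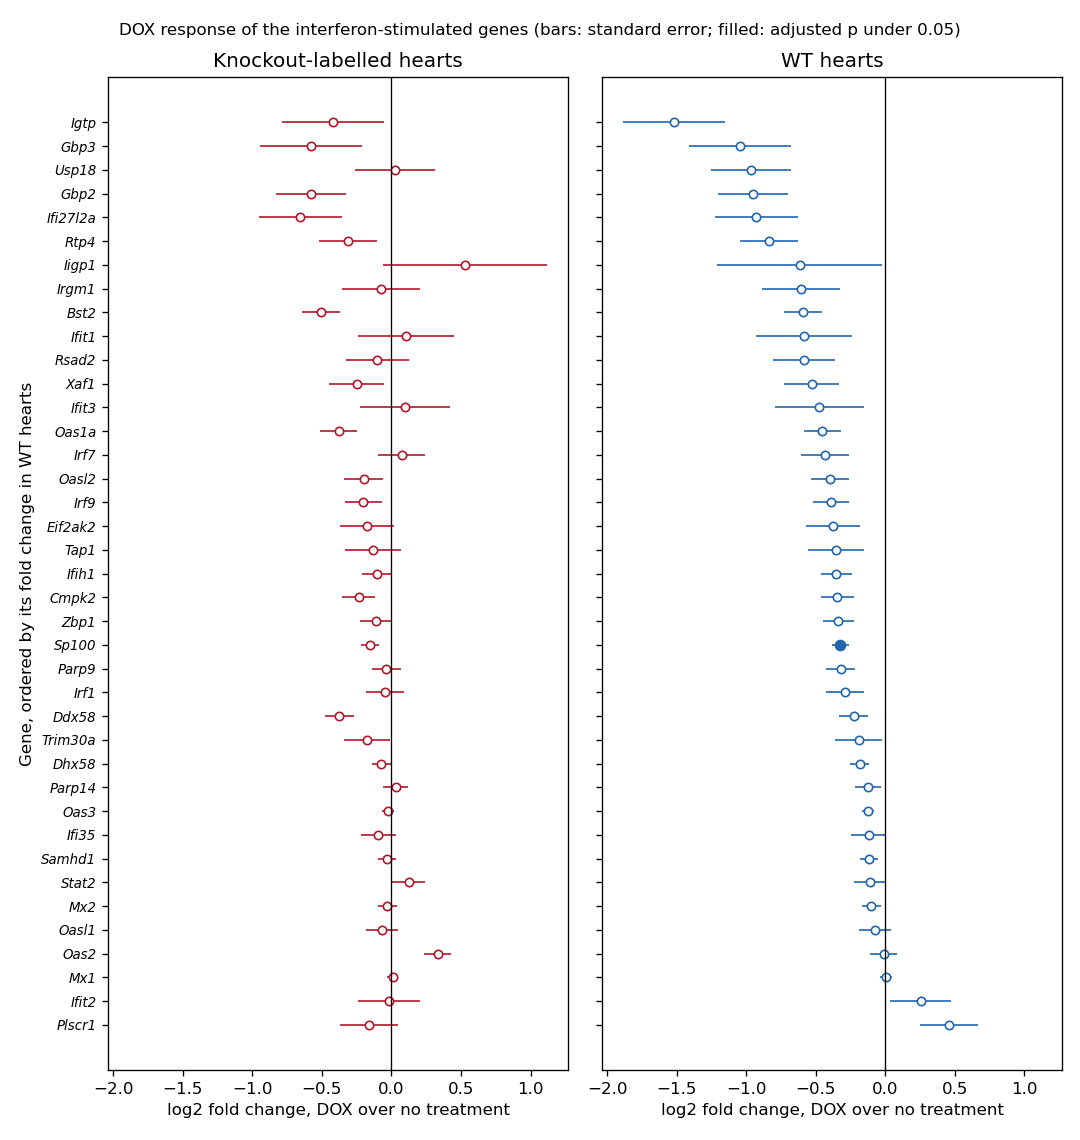
Log2 fold change of the 39 interferon-stimulated genes, DOX over no treatment, in knockout-labelled hearts (left) and WT hearts (right), ordered by the value in WT hearts. Bars are standard errors from limma. In WT hearts 36 and in knockout-labelled hearts 30 points lie below 0, and the filled point, Sp100 in WT hearts, is the gene with an adjusted p under 0.05.

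Whether the response differed by genotype label was tested by the interaction, the response of knockout-labelled hearts minus that of WT hearts. It was above 0 in 36 of the 39 genes with a median of 0.23, where that over all probe sets was 0.01. By limma, at an adjusted p under 0.05, 0% of all probe sets were called and 0 of the 39 genes. At an unadjusted p under 0.05, 2 genes passed, both above 0, namely Usp18 at 0.99 and Oas2 at 0.35 (adjusted p of 0.56 and 0.55 from limma), and 8.69% of all probe sets did. A difference between the genotypes in the response of any of these genes was therefore not shown. The median was 0.10 without knockout-labelled no treatment replicate 3, and 0.06 when WT no treatment replicate 2 was left out as well.

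After DOX no listed gene passed the test between the genotypes. The mean was lower in the knockout-labelled hearts, by label, in 11 of the 39 genes and higher in 28, with a median log2 fold change of 0.06, where 54.8% of all probe sets were higher. Without 1 array in turn the lower means were 8 to 18 and the median 0.01 to 0.13, with the most lower means without knockout-labelled DOX replicate 3. Without WT DOX replicate 3, 7 genes and 16.3% of all probe sets lay wholly below. By limma, at an adjusted p under 0.05, 0.941% of the probe sets and 0 of the 39 genes were called, and at an unadjusted p under 0.05, 1 gene was lower and 1 higher, where 15.5% of all probe sets passed. In 4 genes, Zbp1, Oas1a, Oas2 and Ifi27l2a, the knockout-labelled values lay wholly above, and in 1 wholly below, where 11.2% of all probe sets lay above and 9.13% below. The gene below was Plscr1. It read 156, 145 and 135 in knockout-labelled DOX hearts, against 305, 367 and 181 in WT DOX hearts, a log2 fold change of -0.79 (SE 0.21, adjusted p = 0.11). It was called without WT DOX replicate 3, the lowest of the WT values, at -1.05 with an adjusted p of 0.021, and also when only probe sets with a mean of at least 100 were tested, with 0.040, where 5.73% of them were called. Ifi27l2a read 719, 898 and 900.1 in knockout-labelled DOX hearts, against 551, 617 and 511 in WT DOX hearts, a log2 fold change of 0.55 (SE 0.30, adjusted p = 0.42). Oas2 read 182, 170.5 and 163 in knockout-labelled DOX hearts, against 157, 133 and 125 in WT DOX hearts, a log2 fold change of 0.26 (SE 0.10, adjusted p = 0.24). All 5 genes of the OAS family had a higher mean in the knockout-labelled DOX hearts, with a median of 0.23, and Oasl1 and Oas1a had 0.23 and 0.28. With no treatment Oasl1 and Oas1a had similar log2 fold changes of 0.22 and 0.20 between the genotypes. Over the family 2 of the 5 means were then higher in knockout-labelled hearts, with a median of -0.002.

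With no treatment the knockout-labelled hearts, by label, had the lower mean in 31 of the 39 genes. The median log2 fold change was -0.13, where that over all probe sets was -0.004 and 52.8% of probe sets were lower. By limma, at an adjusted p under 0.05, 1.81% of the probe sets and 0 of the 39 genes were called. At an unadjusted p under 0.05, 5 genes were lower and 0 higher, where 14.1% of all probe sets passed. The knockout-labelled values lay wholly below in 7 genes and wholly above in 0, where 10.7% of all probe sets lay below and 8.7% above. Of the 30 genes with a mean of at least 100, 6 (20%) lay wholly below, and of the 7908 genes of that brightness 19.9% did. At an unadjusted p under 0.05 by limma, 5 of the 30 (16.7%) and 31.8% of the 7908 passed. Without knockout-labelled no treatment replicate 1, 17 genes and 16.1% of all probe sets lay wholly below, and without WT no treatment replicate 1, 14 genes and 17.4% did. Without knockout-labelled no treatment replicate 3 the median was -0.05, and when WT no treatment replicate 2 was left out as well it was -0.02, with 21 lower means.

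The GTPase genes had lower means in 5 of 5, with log2 fold changes of -0.16 for Gbp2 to -1.51 for Iigp1. Their median of -0.63 was the value of Irgm1, and Irgm1 had -0.30 without WT no treatment replicate 2. Igtp read 456, 499 and 269 in knockout-labelled hearts with no treatment, against 529, 1531 and 893 in WT hearts with no treatment, with no overlap and a log2 fold change of -1.13 (SE 0.37, adjusted p = 0.18). Iigp1 read 2134, 2256 and 466 in knockout-labelled hearts with no treatment, against 2102, 5516 and 4819 in WT hearts with no treatment. The knockout-labelled group held the lowest value of the 12 arrays and the WT group the highest, the groups overlapped, and the log2 fold change of -1.51 (SE 0.59, adjusted p = 0.27) was -0.79 without knockout-labelled no treatment replicate 3. Parp14, an ADP-ribosyltransferase gene, read 177, 149 and 147 in knockout-labelled hearts with no treatment, against 178, 220.4 and 209 in WT hearts with no treatment, and Irf9 read 174, 185 and 169 in knockout-labelled hearts, against 217, 295 and 222 in WT hearts. Neither overlapped, and the log2 fold changes were -0.30 and -0.40, with adjusted p of 0.14 and 0.18.

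The level over all the genes varied between arrays of 1 group. The mean of log2(intensity + 32) over the 39 genes was 7.64, 7.56 and 7.74 in the knockout-labelled DOX hearts, 7.73, 7.55 and 7.44 in the WT DOX hearts, 7.98, 7.80 and 7.54 in the knockout-labelled hearts with no treatment and 7.81, 8.08 and 8.01 in the WT hearts with no treatment. The SD of this mean between arrays of 1 group was 0.16. WT no treatment replicate 2 had the highest of the 12 values for 13 genes, knockout-labelled no treatment replicate 1 for 12 and WT no treatment replicate 3 for 8. The lowest values were on WT DOX replicate 2 for 12 genes, on WT DOX replicate 3 for 10 and on knockout-labelled no treatment replicate 3 for 9.

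Cells of the blood and immune system also express these genes, and their markers were read on the same arrays. In bulk hearts fewer cells of a type and less RNA per cell cannot be told apart. Of 13 macrophage and monocyte markers, 12 had a lower mean after DOX in WT hearts, and Csf1r and Cd68 were called. In knockout-labelled hearts 13 of 13 had a lower mean and Cx3cr1 was called. Over all probe sets 3.06% were called in WT and 2.2% in knockout-labelled hearts. The summed intensity of the 13 markers was 5147, 5793 and 4910.0 in knockout-labelled DOX hearts, 3635, 4295 and 3232 in WT DOX hearts, 7682, 5306 and 10550.2 in knockout-labelled hearts with no treatment and 5541, 6416 and 7179 in WT hearts with no treatment. Knockout-labelled no treatment replicate 3 had the highest of these sums and the lowest mean deviation of the 5 GTPase genes, with the lowest value of the 12 arrays in Irgm1 and Iigp1 and not in Igtp, Gbp2 or Gbp3. The erythroid gene Alas2 read 14.7 to 33.4 on the 6 DOX arrays and 56.3 to 978 on the 6 others. The 7 T cell markers summed to 226 to 280 on each array and the 5 NK cell markers to 92.6 to 125, and Cd3e, the brightest of the CD3 genes, read 73.2 to 101. Sums of 5 neutrophil markers were 323 to 6545, and the highest and the lowest lay in different groups. Of 6 fibroblast markers, Lum was called lower after DOX in WT hearts and Lum and Col1a1 in knockout-labelled hearts, and all 6 had a higher mean in knockout-labelled than in WT hearts both after DOX, where Lum was called (1.17, adjusted p = 0.020), and with no treatment, where Col1a1 was called (1.13, adjusted p = 0.048). Between the same groups the macrophage and monocyte markers had a higher mean in knockout-labelled hearts in 11 of 13 after DOX and in 12 of 13 with no treatment, and 0 were called by limma, with 3 and 0 at an unadjusted p under 0.05. The part of macrophage, red cell, fibroblast and other cell RNA in the values of the interferon-stimulated genes was not tested.

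**Figure D4:**
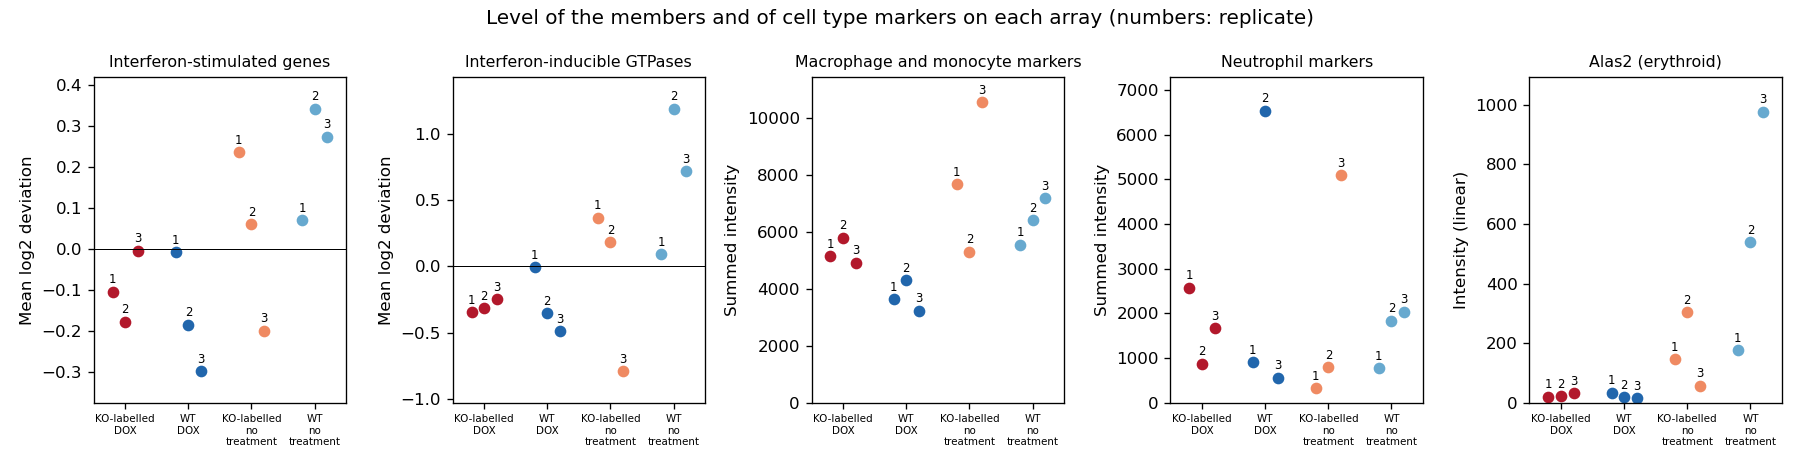
From left to right, the mean log2 deviation of the 39 interferon-stimulated genes and of the 5 GTPase genes from their means over 12 arrays, the summed intensity of macrophage and monocyte and of neutrophil markers, and the intensity of Alas2, on each array (points, with replicate numbers) by group. The 3 WT DOX arrays have the 3 lowest macrophage sums, 3232 to 4295, and knockout-labelled no treatment replicate 3 has the lowest mean deviation of the GTPase genes and the highest macrophage sum.

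Genes of the pathway outside the list were counted in 5 groups by role. Of 8 interferon ligand and receptor genes, 1 (12.5%) was called in WT hearts after DOX, where 5 means were lower and the median was -0.07. Over all probe sets 3.06% were called and 54.0% were lower, and of the 7908 genes with a mean of at least 100, 7.23% were called. The ligand genes Ifnb1 and Ifng were dim, with mean intensities of 17.8 and 7.16. Ifngr2, the signalling chain of the interferon gamma receptor, fell. It read 1079, 785 and 958 in WT DOX hearts, against 1835, 2244 and 2205 in WT hearts with no treatment, with no overlap and a log2 fold change of -1.13 (SE 0.19, adjusted p = 0.023). In knockout-labelled hearts it read 1224, 1169 and 1291 after DOX, against 1293, 1688 and 903 with no treatment, a log2 fold change of -0.03, and the interaction of 1.10 had an adjusted p of 0.42. The call in WT hearts ended without WT DOX replicate 1 or 2 and without WT no treatment replicate 2 or 3, with adjusted p up to 0.090. Ifngr1, the other chain, had 0.17 in WT hearts with an adjusted p of 0.48. Il10rb, the receptor chain shared by interleukin 10 and interferon lambda, was called between the untreated genotypes. It read 1093, 1205 and 836 in knockout-labelled hearts, against 1758, 1595 and 1610.2 in WT hearts, a log2 fold change of -0.66 (SE 0.11, adjusted p = 0.021). Without any of the 3 WT arrays its adjusted p was 0.064 to 0.082.

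The transducer genes were not mostly lower. Of 10 JAK-STAT transducer and inhibitor genes, 0 were called in either genotype after DOX by limma, and at an unadjusted p under 0.05 in WT hearts 3 were higher and 1 lower, with 6 of 10 means higher and a median of 0.17. In knockout-labelled hearts 1 was higher and 1 lower at that p. Over all probe sets the shares at that p were the 18.8% in WT and 16.2% in knockout-labelled hearts given above, and for adjusted calls 3.06% and 2.2%. Pias1, an inhibitor of STAT binding to DNA, read 468, 553 and 399.8 in WT DOX hearts, against 375, 354 and 332 in WT hearts with no treatment, a log2 fold change of 0.38 (SE 0.10, adjusted p = 0.080) with no overlap, called without WT DOX replicate 3 (adjusted p = 0.024). Stat3 read 948, 1125 and 857 in WT DOX hearts, against 767, 569 and 648 with no treatment, a log2 fold change of 0.54 (SE 0.19, adjusted p = 0.16). Ptpn6, which codes for the phosphatase SHP-1, had -0.24 in knockout-labelled hearts with an adjusted p of 0.21. The study's text follows SHP-1 as protein, whereas the arrays read RNA only. Of 14 genes of nucleic acid sensing upstream of interferon, 0 were called by limma with all arrays, with 7 of 14 means lower in WT hearts and a median of 0.00, and at an unadjusted p under 0.05, 2 were higher and 2 lower in WT hearts and 1 was higher and 2 lower in knockout-labelled hearts. Tlr3, a receptor for double-stranded RNA, read 81.9, 91.8 and 85.9 in knockout-labelled hearts after DOX, against 117, 95.3 and 110.0 with no treatment, with no overlap and a log2 fold change of -0.23 (SE 0.06, adjusted p = 0.073), called without knockout-labelled no treatment replicate 2 (adjusted p = 0.024). Tlr9, a receptor for DNA, had 0.12 in knockout-labelled hearts, and Irf3, the factor that starts type I interferon output, had 0.23 in WT hearts, with adjusted p of 0.26 and 0.13. Irf3 was called without WT DOX replicate 3 (adjusted p = 0.048).

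Other interferon-induced genes outside the list were lower in 15 of 21 means after DOX in WT hearts, with a median log2 fold change of -0.16, and 3 were called, all lower. In knockout-labelled hearts 15 of 21 means were also lower and 1 was called. The share called was 14.3% in WT and 4.76% in knockout-labelled hearts. Over all probe sets it was 3.06% and 2.2%, and among the 7908 genes with a mean of at least 100 it was 7.23% and 6.28%. Ifi30, which codes for a thiol reductase of lysosomes, was called in both. It read 160.4, 152 and 143 in knockout-labelled DOX hearts, against 250.0, 209 and 231 with no treatment, and 123, 165 and 142 in WT DOX hearts, against 209.8, 213 and 232 with no treatment. The log2 fold changes were -0.51 (SE 0.09, adjusted p = 0.022) in knockout-labelled and -0.52 (SE 0.09, adjusted p = 0.021) in WT hearts, and neither genotype overlapped between treatments. Isg20, an exonuclease gene, read 42.7, 38.9 and 41.5 in WT DOX hearts, against 62.8, 99.9 and 131 with no treatment, a log2 fold change of -0.80 (SE 0.15, adjusted p = 0.028). Lgals3bp, which codes for a secreted galectin ligand, read 267, 265 and 217 in WT DOX hearts, against 435, 433 and 339.6 with no treatment, a log2 fold change of -0.62 (SE 0.14, adjusted p = 0.049). Without 1 array in turn, Ifi30 kept its call in 3 of 6 cases in WT hearts, where it ended without WT DOX replicate 1 and WT no treatment replicates 2 and 3. In knockout-labelled hearts it kept its call in 1 of 6, without replicate 2 of the untreated hearts. Isg20 kept its call in 2 of 6, without WT DOX replicate 3 or WT no treatment replicate 1, and Lgals3bp in 0. Dtx3l, the ubiquitin ligase partner of Parp9, was called between the untreated genotypes. It read 192, 196 and 159.6 in knockout-labelled hearts, against 234, 288 and 243 in WT hearts, a log2 fold change of -0.42 (SE 0.08, adjusted p = 0.041), and it kept its call in 1 of 6 such cases, without knockout-labelled replicate 2.

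Genes of antigen presentation by MHC class I were lower in 11 of 11 means after DOX in both genotypes, with medians of -0.28 in knockout-labelled and -0.27 in WT hearts, and 1 (9.09%) was called in each. Over all probe sets 44.5% were lower in knockout-labelled and 54.0% in WT hearts, and 2.2% and 3.06% were called. Among the 7908 genes with a mean of at least 100, 6.28% and 7.23% were called, which is close to the share of this group. Psmb10, a subunit of the immunoproteasome that cuts peptides for presentation, fell in WT hearts. It read 375, 341 and 352 in WT DOX hearts, against 571, 824 and 652 in WT hearts with no treatment, a log2 fold change of -0.87 (SE 0.11, adjusted p = 0.010), and the call ended only without WT no treatment replicate 3 (adjusted p = 0.050), among the 6 arrays left out in turn. In knockout-labelled hearts it read 392, 435 and 436 after DOX, against 548, 540.2 and 489.5 with no treatment, a log2 fold change of -0.30 (SE 0.11, adjusted p = 0.20), and the interaction had an adjusted p of 0.44. The other subunits Psmb8 and Psmb9 had -0.64 and -0.57 in WT hearts. Erap1, a peptidase that trims peptides for MHC class I, fell in knockout-labelled hearts. It read 137, 150.3 and 141 after DOX, against 195, 179 and 199.5 with no treatment, a log2 fold change of -0.35 (SE 0.06, adjusted p = 0.020). That call ended without knockout-labelled DOX replicate 1 and without knockout-labelled no treatment replicate 1, with adjusted p of 0.079 and 0.050.

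**Figure D5:**
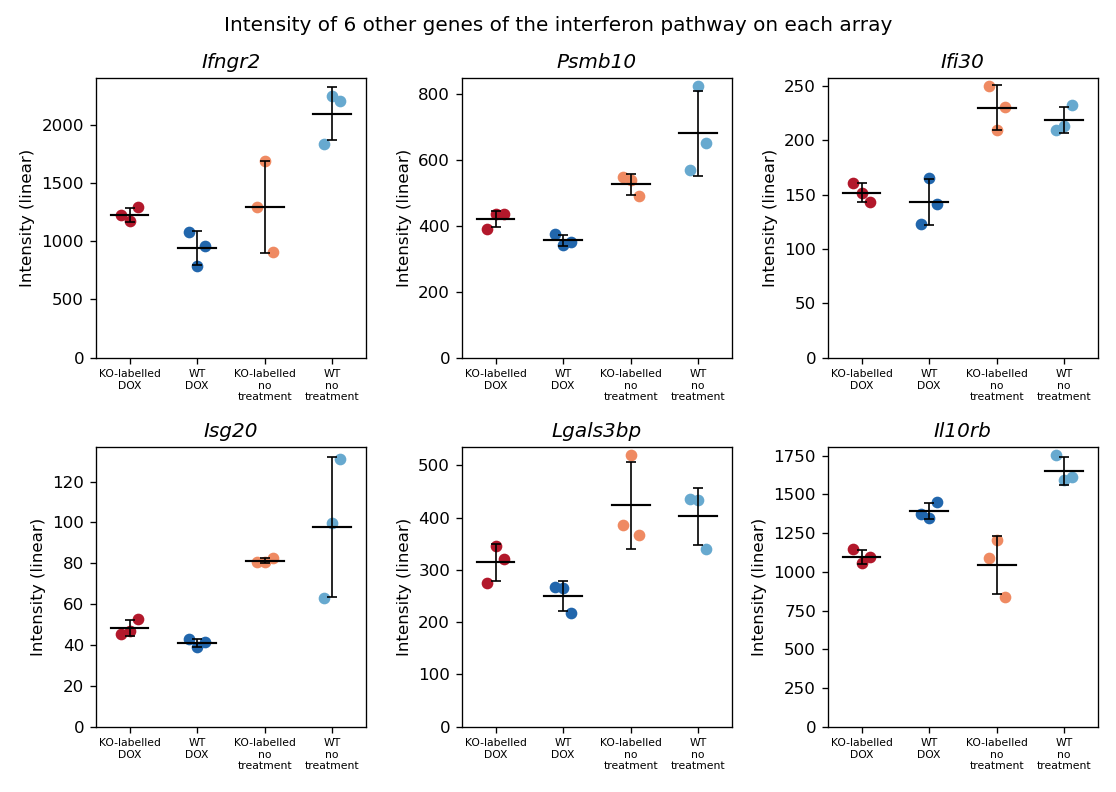
Linear intensity of 6 interferon pathway genes outside the list on each array, by group, with the mean (horizontal line) and SD (bar, n = 3). The 3 WT DOX values of Ifngr2, Psmb10, Ifi30, Isg20 and Lgals3bp lie below the 3 values of WT hearts with no treatment, and the 3 values of Il10rb in knockout-labelled hearts with no treatment, 836 to 1205, lie below the 3 in WT hearts with no treatment.

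The listed genes were also split by the response element core in their window. After DOX in WT hearts the mean was lower in 15 of the 15 genes with the core, with a median log2 fold change of -0.48, and in 11 of the 13 without it, with a median of -0.32. In knockout-labelled hearts it was lower in 12 of 15 with the core, with a median of -0.18, and in 12 of 13 without it, with a median of -0.13. These counts are a description, since the list was drawn from genes known to respond to interferon, and many of them to carry the element.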

How the data were processed

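Heart RNA was measured on 12 Affymetrix arrays, 3 in each of 4 groups taken from the labels. The authors deposited linear intensity values, 1 for each of 45037 probe sets and each array, made with Affymetrix Expression Console, whose version and summary method are not given in the sources used here. Summary and scaling steps set how dim probe sets compare, and precision is limited by how many arrays there are. A single gene is named by 34945 probe sets, several by 932 and none by 9160.

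Log2(intensity + 32) was fitted with limma 3.58.1 in R 4.3.3 to 4 group means over all 12 arrays, with two-sided moderated tests and Benjamini-Hochberg adjustment over all 45037 probe sets, and a call was an adjusted p under 0.05. The fit was tested on simulated data first. An exact permutation test of 3 against 3 arrays cannot go below 0.1, so none was used. Figures were drawn with matplotlib 3.10.9 in Python 3.11.15.

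Each gene was taken on its brightest probe set that names 1 gene. Genes were named if called, if among the 6 smallest p in a comparison, or if the brightest or the smallest p of a role group, and of the other pathway lists if called or, with none called, if among the 2 smallest p in a DOX response. The members and lists were chosen with earlier results of these data known. Alternatives were other scalings, variance models, added constants, filters, rules for several probe sets, the methods' t-test, a replicate block and leaving out arrays.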

Additional observations from a re-analysis of the deposited data

How the results depend on the processing

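Of the 39 interferon-stimulated genes 1 was called after DOX in WT hearts, and that count depended on the setting. It was 2 with quantile normalization, 3 with trended and robust variance, 6 with array weights, 5 with 8 added before log2, 8 among probe sets with a mean of at least 100, 4 with 1 probe set per gene, 4 when all probe sets of a gene were averaged, 3 when any probe set of a gene counted, 4 in a fit to the 6 arrays compared and 0 by the methods' t-test. Without 1 array in turn it was 0 to 2, and 0 when knockout-labelled no treatment replicate 3 and WT no treatment replicate 2 were left out together, an alternative chosen after seeing the data. In knockout-labelled hearts it was 0, and 2 among probe sets with a mean of at least 100. Between genotypes after DOX it was 0, and 1 with that filter, and 0 to 1 without 1 array in turn (1 without WT DOX replicate 3). Between untreated genotypes and for the interaction it was 0 in every setting run. No named gene turned its direction past the threshold in these settings.

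Over all probe sets, 1379 were called after DOX in WT hearts, and this total moved with the setting too. It was 1630 with quantile normalization, 1985 with trended and robust variance, 2555 with array weights and 1885 with 8 added before log2. Among probe sets with a mean of at least 100 it was 1767, with 1 probe set per gene 944, and with a gene's probe sets averaged 1035. The 6-array fit gave 911, the methods' t-test 4, and leaving out 1 array in turn 41 to 2285. In knockout-labelled hearts 990 were called, 1571 with the filter, 79 in the 6-array fit, 0 by the t-test and 116 to 1018 without 1 array. After DOX the genotypes differed in 424, with array weights in 720, with the filter in 742, in the 6-array fit in 2, by the t-test in 0 and without 1 array in 19 to 893. With no treatment they differed in 817, with array weights in 1414, with the filter in 1306, in the 6-array fit in 206, by the t-test in 3 and without 1 array in 84 to 1206. The cause of these differences was not tested. The interaction gave 0, and at most 5 with array weights. Its median over the 39 genes was 0.23, and 0.06 with both arrays left out.

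The sources do not say that replicate numbers pair the arrays. Residuals of same-numbered arrays correlated at -0.20 to 0.15, over 0.1 in 2 of 12 pairs, and those of differently numbered arrays at -0.29 to 0.27. With 3 arrays in a group these correlations cannot decide whether the numbers share a batch. With the number as a replicate block, 1 of the 39 genes was called after DOX in WT hearts and 0 in the other comparisons, and 1335 probe sets were called after DOX in WT hearts.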
